A study of Mus musculus with 12 samples.

Results

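The Hox genes are the 39 of 24490 genes in the expression table whose symbol is Hox, a cluster letter from a to d and a number, taken without any limit on their expression. They encode homeodomain transcription factors and stand in 4 clusters, with 11 genes in Hoxa, 10 in Hoxb, 9 in Hoxc and 9 in Hoxd. Genes with the same number in different clusters are paralogues, and the numbers run from 1 at the 3′ end of a cluster to 13 at its 5′ end. In the embryo, genes with low numbers are active up to the hindbrain and neck, and genes with high numbers only further towards the tail, so that the set of active Hox genes marks the position of a cell along the body axis. Much of this pattern persists in adult neurons, glia and connective tissue cells, and dorsal root ganglia (DRG) lie along most of the axis. Paralogues 1 to 3 are called anterior here, 4 to 8 central and 9 to 13 posterior.

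RNA was measured in DRG taken from all axial levels of adult C57Bl/6 mice, which the study’s methods give as male. Intact ganglia were frozen directly (4 samples of 1 mouse each), unsorted samples held acutely dissociated DRG cells (4 samples of 2 pooled mice each), and MACS-sorted samples, here called sorted, were dissociated and then freed of non-neuronal cells with antibodies on a magnetic column (4 samples of 8 pooled mice each). Values are FPKM, fragment counts scaled for transcript length and sequencing depth, which can be compared between genes. The number of ganglia from each level in a sample is not given in the sources used here, and all values are averages over levels.

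The spacing of the lowest FPKM values gave an estimated depth between 16700000 and 19850000 fragments for intact, 16000000 and 18900000 for unsorted, and 13900000 and 17550000 for sorted samples. Intact replicate 1 stood apart from its group. The median absolute log2 difference between it and the other intact samples, over 8428 genes averaging 5 FPKM or more, was 0.292 to 0.326, against 0.0778 to 0.0945 among the other 3. The 8 skeletal muscle genes summed to 3160 FPKM in it, led by Mylpf at 700 FPKM, and to 71.2, 17.4 and 20.9 FPKM in intact replicates 2 to 4. In unsorted and sorted samples this sum was 0.702 to 9.37 FPKM, and Atp2a1 was listed at 0 in every sorted sample. Several Hox differences from intact DRG are therefore also given without this sample, and those of the cell type lists are not. Unsorted replicates 1 and 2 differed least of all pairs, with a median absolute log2 difference of 0.0526. Whether they were separate cell preparations was not tested, and n = 4 for unsorted DRG counts them as such.

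Cell type markers separated the groups. The 8 pan-neuronal genes, led by Uchl1, summed to between 3583 and 3835 FPKM in intact, between 4278 and 4602 in unsorted and between 3800 and 4884 in sorted samples, so that neurons were represented in all 3. The 7 satellite glia genes summed to 2830, 2821, 2421 and 2252 FPKM in unsorted replicates 1 to 4 and to 117, 89.9, 129 and 202 FPKM in sorted replicates 1 to 4. Apoe was the highest of them in unsorted samples and Glul in sorted samples. The 8 Schwann cell genes summed to 2738, 2757, 1934 and 3189 FPKM in unsorted and 569, 520, 592 and 1205 FPKM in sorted samples. The 7 fibroblast genes, led by Dcn, summed to 348, 338, 172 and 228 FPKM in unsorted and 8.78, 8.71, 15.0 and 35.0 FPKM in sorted samples. RNA of glia and fibroblasts was thus reduced but present after sorting, most in sorted replicate 4. Neuron types changed as well. The 8 genes of large-diameter neurons, led by Nefh, summed to 884, 874, 1069 and 1008 FPKM in unsorted and 174, 94.2, 145 and 126 FPKM in sorted samples. The 10 nociceptor genes summed to 2701, 2653, 2572 and 2645 FPKM in unsorted and 4059, 4046, 3469 and 2906 FPKM in sorted samples. Red blood cell genes summed to 294, 325, 88.1 and 138 FPKM in unsorted and 1473, 1985, 9888 and 12683 FPKM in sorted samples, highest in replicates 3 and 4. No gene of these lists was listed at 0 in all 4 samples of a group except Hba-a1, which was at 0 in every sample although the other globin genes were abundant, so a 0 in this table is not always an absence. Sums of the remaining lists in intact, unsorted and sorted samples reached at most 23.7, 50.5 and 68.1 FPKM for endothelial, 93.2, 88.3 and 125 for mural, 42.3, 13.7 and 3.01 for macrophage, 135, 91.7 and 38.9 for neutrophil and marrow, 7.04, 3.25 and 0.844 for cartilage and bone, and 2.95, 0.940 and 0.972 for spinal cord genes. The mural sum was led by Rgs5 in all groups and hides the other genes, as 5 of 6 mural genes were lower in sorted than in unsorted DRG at an adjusted p under 0.05 (limma), with a median log2-fold change of −3.86. Tagln, Elane, Acan, Col9a1, Sp7 and Olig2 were at 0 in all sorted samples, Chat and Opalin also in all unsorted samples and Mnx1 in every sample, and Ly6g was not found.

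Hox transcripts were widespread and mostly below 5 FPKM. The median over Hox genes of the group mean was 1.98, 1.45 and 1.97 FPKM in intact, unsorted and sorted DRG. Over all genes it was 1.14, 0.941 and 0.599 FPKM. The 39 genes together summed to 126.3, 99.99, 96.52 and 103.3 FPKM in intact replicates 1 to 4, to 115.5, 108.7, 96.20 and 111.1 FPKM in unsorted and to 92.01, 103.0, 97.28 and 101.4 FPKM in sorted replicates 1 to 4. The 3 groups overlapped, with the highest sum in intact replicate 1. Above 0 in all 4 samples of a group were 31 Hox genes in intact, 32 in unsorted and 30 in sorted DRG, or 79.5%, 82.1% and 76.9% of them, against 63.7%, 61.8% and 56.1% of all genes. Above 5 FPKM in all 4 samples, the study's limit for an expressed gene, were 6, 6 and 4 Hox genes, or 15.4%, 15.4% and 10.3%, against 31.4%, 32.2% and 29.2% of all genes. Hoxa7, Hoxa9, Hoxb5 and Hoxd8 passed this limit in all 3 groups and Hoxd1 in intact and unsorted DRG. Hoxa10 passed it in intact DRG alone, with 1 sample below it in each other group (4.89 and 4.86 FPKM), and Hoxd9 in unsorted DRG alone.

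**Figure D1:**
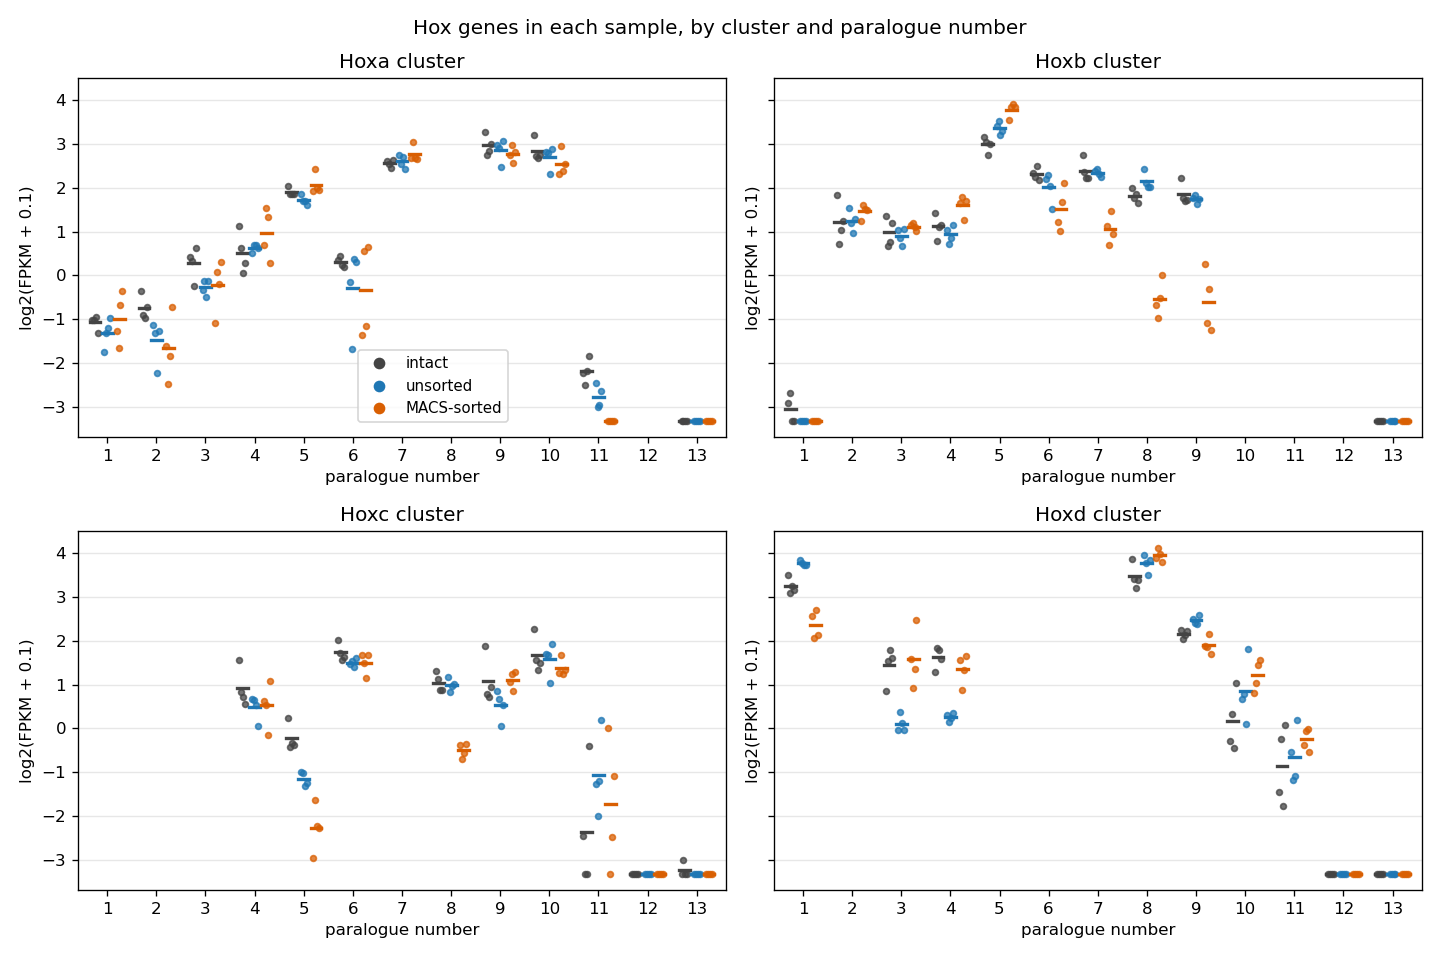
Level of each Hox gene as log2(FPKM + 0.1) against its paralogue number, 1 panel per cluster. Points are samples (4 per group), short lines are group means on this scale, and groups are shifted sideways for legibility. The highest points belong to Hoxd8 and Hoxb5, and paralogues 12 and 13 lie at the floor of the scale, where FPKM is 0 or close to it.

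By cluster, Hoxc genes made up the smallest part of the Hox total in every sample. Hoxa genes contributed 27.4% ± 0.378 (SD, n = 4) in intact, 24.7% ± 0.441 in unsorted and 28.3% ± 3.47 in sorted DRG, and Hoxb genes 29.5% ± 0.552, 30.5% ± 1.81 and 28.1% ± 1.73. Hoxc genes contributed 12.4% ± 1.62 (SD, n = 4) of the summed Hox FPKM in intact, 10.3% ± 0.546 in unsorted and 9.99% ± 1.54 in sorted DRG. Hoxd genes contributed 30.7% ± 1.73 in intact, 34.5% ± 0.952 in unsorted and 33.6% ± 2.44 in sorted DRG, with the same n. By position, central genes held most of the total, 54.2% ± 1.79 in intact, 54.0% ± 2.75 in unsorted and 59.8% ± 1.13 in sorted DRG (SD, n = 4). All 4 sorted samples, at 58.9% to 61.3%, lay above every other sample, the highest of which reached 56.7%. This did not hold under the other class limits tried. With paralogues 5 to 9 taken as central the share was 62.1% to 64.0% (intact), 62.0% to 65.95% (unsorted) and 62.4% to 65.9% (sorted), and the groups overlapped. The central sum itself overlapped between groups, at 52.75 to 67.47 FPKM (intact), 54.5 to 63.2 FPKM (unsorted) and 54.2 to 63.2 FPKM (sorted). Anterior genes summed to 21.3, 20.1, 18.5 and 19.9 FPKM in unsorted and 14.1, 12.3, 15.2 and 16.8 FPKM in sorted replicates 1 to 4, without overlap. With paralogue 4 counted as anterior the groups overlapped, at 24.2 to 27.2 FPKM (unsorted) and 21.6 to 26.1 FPKM (sorted). A single gene, Hoxd1, held 66.0% to 70.8% of the anterior sum in unsorted and 25.7% to 42.4% in sorted samples. The other 7 anterior genes summed to 5.40 to 6.88 FPKM in unsorted and 8.21 to 12.5 FPKM in sorted samples, a split of the class made after its values were seen.

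The most abundant Hox gene was Hoxd8, a central gene that lies on chromosome 2 of mm10 from 74704615 to 74707932. It measured 14.5, 10.6, 9.21 and 10.5 FPKM in intact, 15.4, 13.7, 11.3 and 14.2 FPKM in unsorted and 14.8, 17.4, 15.7 and 13.9 FPKM in sorted replicates 1 to 4. Intact replicate 1 reached into the range of the other groups, and the other 3 intact samples lay below every unsorted and sorted sample. Hoxa9, Hoxa10 and Hoxa7 were the most abundant genes of the Hoxa cluster. Hoxa9 measured 9.57, 6.69, 7.11 and 7.89 FPKM in intact, 7.82, 7.41, 5.50 and 8.29 FPKM in unsorted and 6.66, 7.79, 5.82 and 6.98 FPKM in sorted samples. Hoxa10 measured 9.20, 6.54, 6.31 and 6.69 FPKM in intact, 6.95, 6.83, 4.89 and 7.36 FPKM in unsorted and 4.86, 7.68, 5.15 and 5.79 FPKM in sorted samples. In both genes, which in the embryo act from the trunk to the lumbar region, the 3 groups overlapped and intact replicate 1 was the highest sample of all. Hoxa7 was steadier, at 5.99, 5.71, 5.41 and 6.15 FPKM in intact, 6.69, 5.76, 6.48 and 5.28 FPKM in unsorted and 6.29, 8.24, 6.29 and 6.28 FPKM in sorted samples. Every sorted sample lay above every intact sample for Hoxa7, by little apart from sorted replicate 2, and the difference passed the test only after quantile normalization (limma, adjusted p = 0.0253). In GENCODE, 20.4% of the exonic bases of Hoxa7 are also covered on the opposite strand by Hoxaas3, so its values are uncertain in the same way as those of Hoxb3 and Hoxb2 below.

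The 3′ part of the Hoxa cluster was low. Hoxa2 and Hoxa3 ranged from 0.413 to 0.681 and 0.749 to 1.44 FPKM in intact samples, after dissociation from 0.113 to 0.358 and 0.605 to 0.819 FPKM (unsorted) and from 0.0790 to 0.510 and 0.369 to 1.14 FPKM in sorted samples. Hoxa2 was lower in every unsorted than in every intact sample, and neither gene passed the filter for the test on the values as given. Hoxa4 and Hoxa5 ranged from 0.941 to 2.11 and 3.52 to 4.05 FPKM in intact, 1.32 to 1.51 and 2.96 to 3.53 FPKM in unsorted and 1.11 to 2.81 and 3.69 to 5.34 FPKM in sorted samples. Hoxa5 was higher in every sorted than in every unsorted sample, with a log2-fold change of 0.36 (SE 0.14, limma, adjusted p = 0.0590). After quantile normalization its adjusted p was 0.00355 and that of Hoxa4 0.0452 in limma. Hoxa6 ranged from 0.213 to 1.47 FPKM over all samples. Opposite-strand transcripts in GENCODE cover 25.4% of the exonic bases of Hoxa3, 16.0% of those of Hoxa4 and 35.0% of those of Hoxa11.

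At the 5′ ends of the clusters, expression all but ended at paralogue 11. Hoxa13, Hoxb13, Hoxc12, Hoxd12 and Hoxd13, which act in the embryo in the tail, the genital region and the ends of the limbs, were listed at 0 in all 12 samples. For these 5 genes, 1 estimated fragment was worth 0.0216 to 0.0865 FPKM, and levels close to that were not detectable at this depth. Hoxc13 was above 0 only in intact replicate 2, at 0.0237 FPKM. Hoxa11 measured 0.114, 0.0761, 0.120 and 0.177 FPKM in intact and 0.0809, 0.0253, 0.0283 and 0.0593 FPKM in unsorted replicates 1 to 4, and was listed at 0 in the 4 sorted samples. These values correspond to 3 to 7 estimated fragments per intact sample and 1 to 3 per unsorted sample. At the 3′ ends, Hoxb1, which marks a segment of the hindbrain, was above 0 only in intact replicates 1 and 2, at 0.0318 and 0.0564 FPKM.

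The comparison of sorted with unsorted DRG asks which Hox transcripts follow the neurons that pass the column. Hox genes moved in both directions. Hoxb7, Hoxb8 and Hoxb9 fell together, Hoxc8, Hoxd1 and Hoxd9 also fell, and Hoxb4, Hoxb5, Hoxc9, Hoxd3 and Hoxd4 rose. None of the 5 Hoxa genes tested passed the test on the values as given, but Hoxa4, Hoxa5 and Hoxa7 were higher after quantile normalization. Against intact DRG, described further below, Hoxb4, Hoxc9, Hoxd3, Hoxd4 and Hoxd9 did not pass the test in sorted samples on the values as given. For each difference limma gave a two-sided p on the log2(FPKM + 0.1) scale, adjusted by the Benjamini-Hochberg method over the 12038 genes that averaged 1 FPKM or more in the 8 samples. On this scale a fold change comes out too small where FPKM are low. Of the 39 Hox genes, 24 passed this filter. At an adjusted p under 0.05, 5 were higher and 6 lower, or 20.8% and 25%, against 18.8% and 27.7% of all genes tested. With the study's further criteria, a log2 ratio of group means beyond 0.5 and more than 5 FPKM on average where the gene is higher, 3 Hox genes were called lower (12.5%, against 12.5% of all genes tested) and 0 higher (against 8.15%). In limma, 6 were higher and 6 lower at an unadjusted p under 0.05, a limit at which the share over all genes was not taken. The median log2-fold change was 0.10 over the 24 Hox genes and −0.04 over all genes tested. Quantile normalization moved the latter to 0.10 and the share of calls that were higher from 39.5% to 51.8%, and moved the Hox median to 0.36. After this step 11 of 25 Hox genes tested were higher and 5 lower at an adjusted p under 0.05 (limma), or 44% and 20%, against 33% and 22.6% of all genes tested. The number of Hox genes that rose thus depended on the scaling. Among all 39 genes, 6 were higher and 8 lower in every sorted than in every unsorted sample, against 9.98% and 18% of all genes. Of the 24 tested, 6 were higher and 6 lower in this sense, against 18.4% and 27.8% of genes tested. In bulk RNA, fewer cells of a type and less RNA per cell cannot be told apart.

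**Figure D2:**
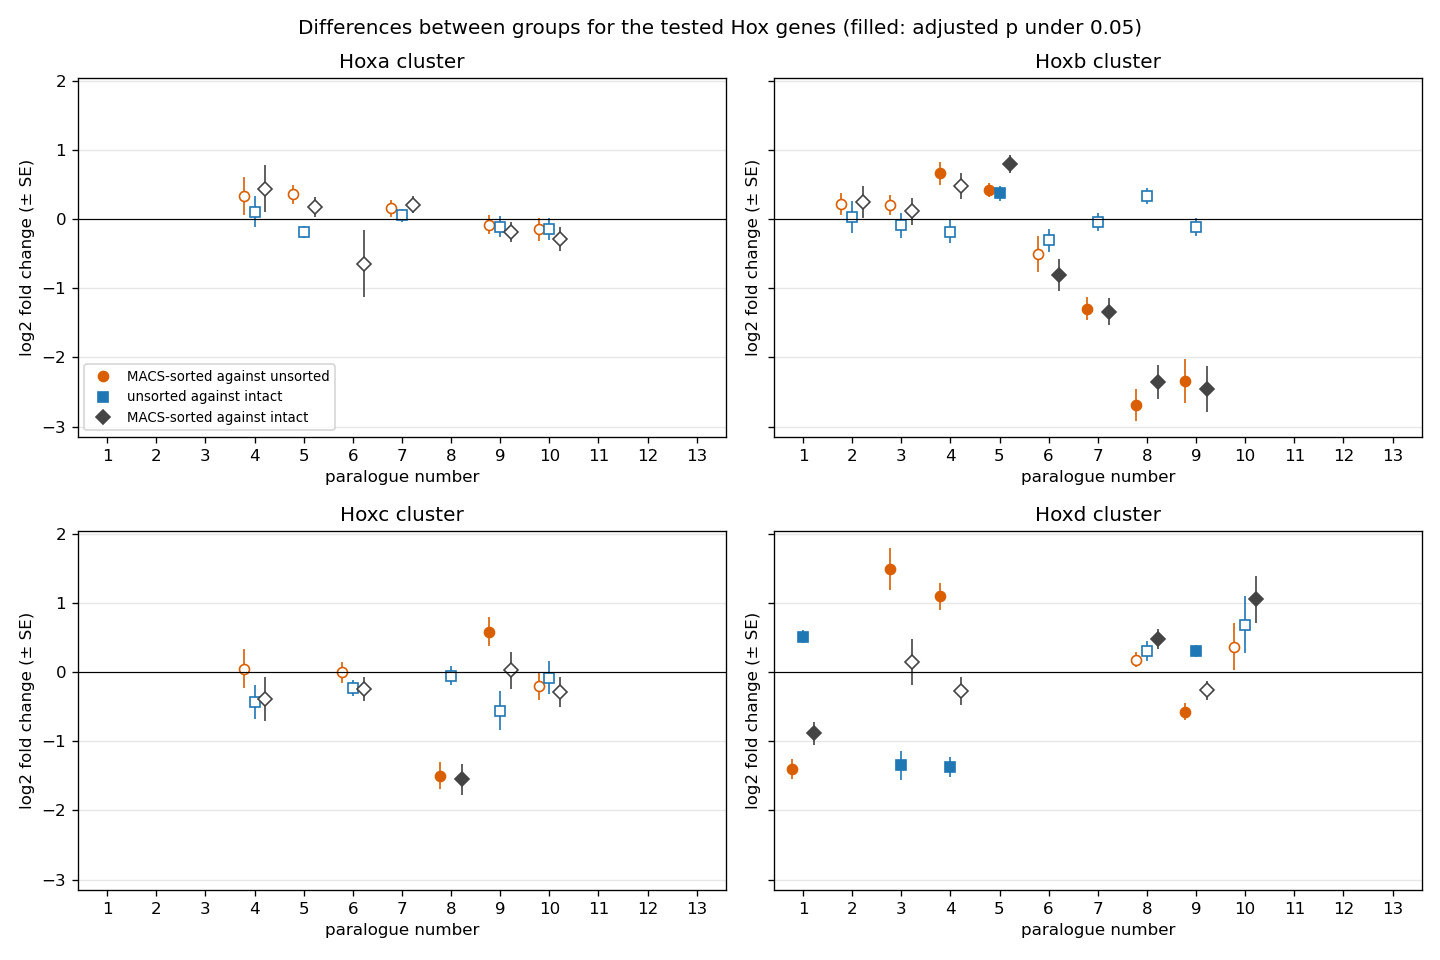
Log2-fold change (± SE) on the log2(FPKM + 0.1) scale for the Hox genes tested, against paralogue number, 1 panel per cluster. Circles compare sorted with unsorted, squares unsorted with intact and diamonds sorted with intact samples (4 per group), and filled symbols have an adjusted p under 0.05. Hoxb7, Hoxb8 and Hoxb9 lie between −1.30 and −2.69 in sorted against unsorted DRG.

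Hoxb7, Hoxb8 and Hoxb9 are neighbours on chromosome 11 of mm10 between 96271330 and 96290163, at the 5′ end of the transcribed part of the Hoxb cluster. Hoxb8 measured 5.32, 4.25, 3.99 and 3.95 FPKM in unsorted replicates 1 to 4 and 0.530, 0.407, 0.603 and 0.905 FPKM in sorted replicates 1 to 4. Every sorted sample was far below every unsorted sample, and the intact samples, at 3.05 to 3.91 FPKM, were close to the unsorted ones. The group means were 4.38 ± 0.642 and 0.611 ± 0.212 FPKM (SD, n = 4), a ratio of 7.16. The log2-fold change was −2.69 (SE 0.23, limma, adjusted p = 1.4e-05). At the estimated depth, the sorted values rest on 17.9, 15.9, 25.8 and 32.7 fragments and the unsorted values on 154 to 229.

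Hoxb9 measured 3.29, 3.46, 3.03 and 3.24 FPKM in unsorted and 1.09, 0.374, 0.703 and 0.322 FPKM in sorted samples. The unsorted samples were nearly alike, and the sorted samples were all lower but spread over more than a factor of 3. Its log2-fold change was −2.34 (SE 0.32, limma, adjusted p = 2.5e-04). Hoxb7 measured 5.17, 5.34, 4.87 and 4.66 FPKM in unsorted and 2.09, 1.51, 2.66 and 1.82 FPKM in sorted samples, and 6.67, 5.04, 4.57 and 4.58 FPKM in intact samples. The sorted values again lay below all others. The log2-fold change was −1.30 (SE 0.17, limma, adjusted p = 1.7e-04), and Hoxb7 was called, whereas Hoxb8 and Hoxb9 had means under 5 FPKM in both groups and could not be. The call of Hoxb7 rested on an unsorted mean of 5.01 FPKM and was lost without unsorted replicate 1 or 2, when these were averaged, and with median-ratio size factors or quantile normalization. Under each scaling and with each replicate left out, all 3 genes remained lower at an adjusted p under 0.05. Quantile normalization made the changes smaller, at −0.89 for Hoxb7, −2.05 for Hoxb8 and −1.70 for Hoxb9.

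Moving towards the 3′ end of the same cluster, the direction turned. Hoxb6 measured 4.53, 4.81, 4.01 and 2.77 FPKM in unsorted and 2.24, 1.94, 3.10 and 4.24 FPKM in sorted samples. The groups overlapped through replicates 3 and 4 of both. The log2-fold change of −0.50 (SE 0.25) had an adjusted p of 0.133 in limma. Hoxb5 measured 10.7, 11.4, 9.13 and 9.80 FPKM in unsorted and 11.6, 14.2, 15.1 and 14.3 FPKM in sorted samples. All sorted samples were above all unsorted samples, and intact samples were lowest, at 8.89, 8.18, 6.61 and 7.97 FPKM. The log2-fold change from unsorted to sorted DRG was 0.42 (SE 0.10, limma, adjusted p = 0.00779). Without sorted replicates 3 and 4 it was 0.33, with an adjusted p of 0.0570 in limma. Hoxb4 rose from 1.95, 1.54, 1.72 and 2.12 FPKM in unsorted to 3.07, 3.34, 2.30 and 3.15 FPKM in sorted samples, again without overlap (log2-fold change 0.66, SE 0.16, limma, adjusted p = 0.00842). Hoxb3 and Hoxb2, at 1.5002 to 2.00 and 1.86 to 2.80 FPKM in unsorted samples and 1.91 to 2.20 and 2.26 to 2.96 FPKM in sorted samples, passed the test only after quantile normalization (limma, adjusted p = 0.0062 and 0.00782). In the GENCODE annotation of the same genome, 52.9% of the exonic bases of Hoxb3 and 27.3% of those of Hoxb2 are also covered on the opposite strand by Hoxb3os. The library kit keeps strand, but its use in the estimation is not stated, so both values are uncertain.

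**Figure D3:**
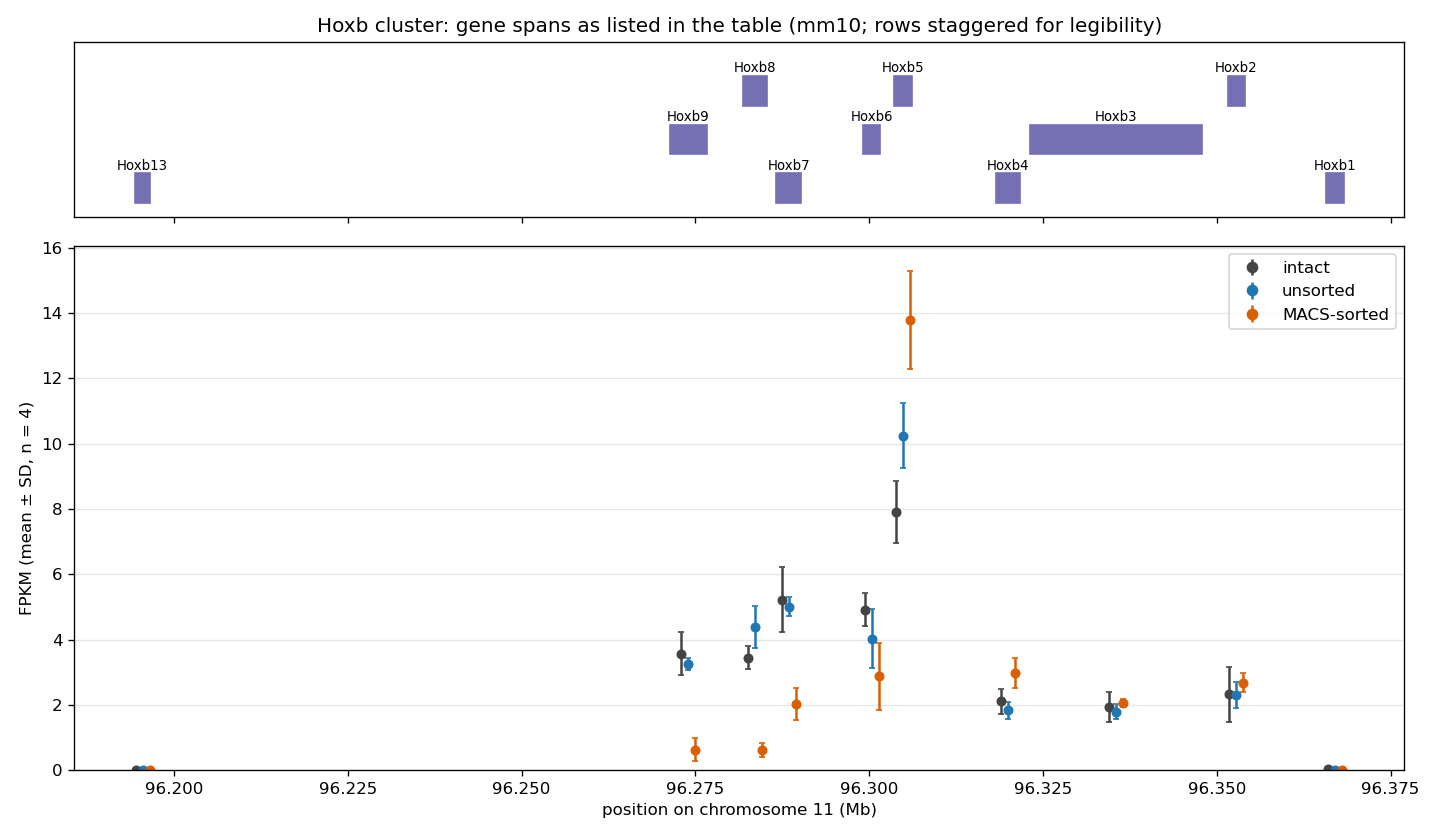
Map of the Hoxb cluster on chromosome 11 (mm10). Boxes in the upper panel are gene spans to scale, and the lower panel shows FPKM (mean ± SD, n = 4) at the middle of each gene, with groups shifted sideways for legibility. From Hoxb9 to Hoxb7 the sorted means (0.623, 0.611 and 2.02 FPKM) lie below the unsorted means (3.25, 4.38 and 5.01 FPKM), and at Hoxb5 they lie above them (13.8 and 10.2 FPKM).

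The paralogues of these genes did not move alike. In group 8, Hoxc8 fell as Hoxb8 did, from 2.15, 1.68, 1.85 and 1.91 FPKM in unsorted to 0.663, 0.516, 0.576 and 0.680 FPKM in sorted samples. The groups were widely separated and each was tight (log2-fold change −1.497, SE 0.20, limma, adjusted p = 2.1e-04). After quantile normalization it was −0.84 (limma, adjusted p = 0.00284). Hoxd8, the third member, had a log2-fold change of 0.18 (SE 0.11, limma, adjusted p = 0.204). In group 9, Hoxb9 and Hoxd9 fell, Hoxc9 rose, and Hoxa9 had a log2-fold change of −0.08 (SE 0.14, limma, adjusted p = 0.669). Hoxd9 measured 5.57, 5.19, 5.13 and 5.97 FPKM in unsorted and 3.60, 3.54, 4.39 and 3.14 FPKM in sorted samples. The groups did not overlap, and the log2-fold change of −0.57 (SE 0.12, limma, adjusted p = 0.00335) passed all 3 criteria, although its adjusted p was 0.0575 after quantile normalization. Hoxc9 measured 1.71, 1.49, 0.934 and 1.35 FPKM in unsorted and 1.99, 2.25, 1.72 and 2.34 FPKM in sorted samples, just clear of each other. Its log2-fold change of 0.58 (SE 0.21) had an adjusted p of 0.0428 in limma, which lay between 0.0658 and 0.0961 without unsorted replicate 2, 3 or 4 or sorted replicate 1, 2 or 4. It was 0.0833 with all 12 samples in the fit and 0.0594 without the filter on low FPKM, and after quantile normalization the change was 1.01 (limma, adjusted p = 0.00115).

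Further genes of the Hoxc cluster were lower or alike. Hoxc5 was below the filter and was not tested, at 0.400, 0.396, 0.304 and 0.318 FPKM in unsorted and 0.0284, 0.221, 0.112 and 0.106 FPKM in sorted samples. The intact samples, at 0.649 to 1.09 FPKM, were above all others, so that its 3 groups were separate. In sorted samples these values rest on 1.1 to 9.7 estimated fragments. Hoxc4, Hoxc6 and Hoxc10 overlapped between unsorted and sorted samples, with log2-fold changes of 0.05, −0.01 and −0.21 (0.36 for Hoxc6 after quantile normalization, limma, adjusted p = 0.0343) and ranges over all samples of 0.796 to 2.84, 2.12 to 3.98 and 1.97 to 4.73 FPKM.

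In the Hoxd cluster, the largest fall was that of Hoxd1. It lies on chromosome 2 of mm10 from 74762980 to 74765142, at the 3′ end of the cluster. Hoxd1, which in mouse DRG is known from nociceptive neurons and their central projections, measured 14.4, 13.59, 13.1 and 13.1 FPKM in unsorted and 5.84, 4.12, 6.43 and 4.31 FPKM in sorted samples. The intact samples lay between them, at 11.3, 8.47, 9.46 and 8.89 FPKM, and no group overlapped another. From unsorted to sorted DRG the log2-fold change was −1.40 (SE 0.14, limma, adjusted p = 4.2e-05), and −1.21 after quantile normalization. The nociceptor list moved the other way over the same samples, with 8 of its 10 genes called higher and 1 lower, against 8.15% and 12.5% of all genes tested.

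Hoxd3 and Hoxd4 rose. Their spans overlap by 7182 bases, and in GENCODE 62.4% of the exonic bases of Hoxd3 and 52.3% of those of Hoxd4 are shared with genes on the same strand, so that reads may have been divided between them and each value is uncertain. Hoxd4 measured 1.15, 1.01, 1.08 and 1.18 FPKM in unsorted and 2.84, 1.74, 2.43 and 3.04 FPKM in sorted samples (log2-fold change 1.09, SE 0.20, limma, adjusted p = 0.00141). Hoxd3 measured 0.875, 1.19, 0.984 and 0.870 FPKM in unsorted and 2.93, 1.797, 2.48 and 5.51 FPKM in sorted samples (log2-fold change 1.49, SE 0.30, limma, adjusted p = 0.00290). Both were low in every unsorted sample and did not overlap with the sorted samples, and Hoxd3 was highest in sorted replicate 4. In intact samples Hoxd4 stood at 2.35, 3.48, 3.38 and 2.91 FPKM and Hoxd3 at 1.72, 2.82, 3.34 and 2.93 FPKM, within the range of the sorted samples or close to it.

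The falls of Hoxb7 to Hoxb9, Hoxc8 and Hoxd1 stood beside falls of other lists over the same 8 samples. All 7 satellite glia genes, 7 of 8 Schwann cell genes, 6 of 7 fibroblast genes and all 8 genes of large-diameter neurons were lower at an adjusted p under 0.05 (limma), with median log2-fold changes of −5.63, −4.07, −5.89 and −2.89. So were 5 of 6 mural, 2 of 2 macrophage and 4 of 4 neutrophil and marrow genes tested, with medians of −3.86, −4.59 and −3.47, against 27.7% of all genes tested. The 1 cartilage and bone gene tested was also lower (log2-fold change −3.90). Not every cell type list fell. None of the 6 endothelial genes passed the test, and all 6 red blood cell genes tested were higher (median log2-fold change 4.69). Among sorted samples, replicate 4 had the highest satellite glia, Schwann cell and fibroblast sums and also the highest Hoxb8 value, whereas its Hoxb9 value was the lowest and its Hoxb7 value lay between the others. Hoxc8 was also highest in this replicate, at 0.680 FPKM, and Hoxd1 second lowest, at 4.31 FPKM. The part of these cells in the Hox differences was not tested.

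The comparison of unsorted with intact DRG concerns dissociated and whole ganglia before any sorting, and these groups also differ in mice per sample. The cell type lists changed as well. At an adjusted p under 0.05 (limma), 7 of 7 fibroblast, 4 of 5 macrophage and 7 of 8 skeletal muscle genes tested were lower. Their median log2-fold changes were −1.16, −1.17 and −5.11. These values include intact replicate 1, with a skeletal muscle sum of 3160 FPKM against 17.4 to 71.2 FPKM in the other intact samples. All 6 endothelial genes, 6 of 8 genes of large-diameter neurons 3 of 7 satellite glia genes and 4 of 8 pan-neuronal genes were higher, with medians of 1.07, 0.63, 0.41 and 0.31, and 0 of 8 Schwann cell genes passed. In intact replicates 1 to 4 the fibroblast genes summed to 961, 554, 609 and 516 FPKM and the Schwann cell genes to 4551, 2930, 3321 and 2512 FPKM. The part of these cells in the differences below was not tested. Hoxd1, Hoxd9 and Hoxb5 were higher after dissociation and Hoxd3 and Hoxd4 lower, at an adjusted p under 0.05 from limma. These 3 higher and 2 lower genes are 12.5% and 8.33% of the 24 Hox genes tested, against 14.8% and 7.79% of the 12392 genes tested. Hoxd1 was called higher by the 3 criteria (1 gene, against 4.29% of all genes tested) and 0 Hox genes were called lower (against 2.76%). In limma, 4 were higher and 2 lower at an unadjusted p under 0.05, again without a share over all genes. The log2-fold changes were 0.51 for Hoxd1 (SE 0.10, limma, adjusted p = 0.00835), −1.35 for Hoxd3 (SE 0.21, limma, adjusted p = 0.00449) and −1.37 for Hoxd4 (SE 0.14, limma, adjusted p = 0.00136). Without intact replicate 1 they were 0.60, −1.54 and −1.48. Hoxd9, at 4.64, 4.04, 4.33 and 4.61 FPKM in intact samples, changed by 0.30 and Hoxb5 by 0.37, with adjusted p-values of 0.0303 and 0.0367 in limma. The call of Hoxd1 was lost without intact replicate 2 or 4 or unsorted replicate 1, and when unsorted replicates 1 and 2 were averaged, because its log2 ratio of means fell below 0.5. The adjusted p of Hoxd9 and Hoxb5 rose above 0.05 without intact replicate 2, 3 or 4 or unsorted replicate 1, 2 or 4, and when unsorted replicates 1 and 2 were averaged. That of Hoxd9 was 0.0864 in limma with all 12 samples in the fit. Without intact replicate 1, Hoxb8 and Hoxd8 were also higher at an adjusted p under 0.05 (limma), for 5 genes in all. Hoxb8 was higher in every unsorted than in every intact sample, as were 4 Hox genes in all (against 11.1% of all genes), and 4 were lower in every unsorted sample (against 8.11%). Of the 24 tested these were 4 and 2, against 20.8% and 12% of genes tested. The median log2-fold change was −0.09 over the Hox genes and 0.01 over all genes tested, and quantile normalization turned the Hox median to 0.01. After this step 4 Hox genes were higher and 2 lower at an adjusted p under 0.05 (limma), or 16.7% and 8.33%, against 11.7% and 8.59% of all genes tested. The share of calls that were higher moved from 60.8% to 50.8% with that normalization.

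Sorted samples were also compared with intact DRG, a comparison that shares its samples with both of the above. The cell type lists differed here too. At an adjusted p under 0.05 (limma), 6 of 7 satellite glia, 8 of 8 Schwann cell and 7 of 7 fibroblast genes tested were lower. So were 6 of 7 genes of large-diameter neurons and 8 of 8 skeletal muscle genes. Red blood cell genes were higher (6 of 6), as were 6 of 10 nociceptor genes, and 0 of 6 endothelial genes passed. What these cells contribute to the Hox differences was not tested. Hoxb5 was called higher, Hoxb7 and Hoxd1 lower. Of 25 Hox genes tested, 3 were higher and 6 lower at an adjusted p under 0.05 (limma), or 12% and 24%, against 14.1% and 20.6% of 12234 genes. By the 3 criteria 1 was called higher (against 7.54% of genes tested) and 2 lower (against 10.7%). Hoxb7, Hoxb8 and Hoxb9 had log2-fold changes of −1.34, −2.36 and −2.45 (SE 0.20, 0.24 and 0.34), and Hoxc8 one of −1.55 (SE 0.22). Their adjusted p-values in limma were 6.9e-04, 7.7e-05, 4.4e-04 and 5.8e-04. Without intact replicate 1 the changes were −1.22, −2.30, −2.33 and −1.46, and Hoxb7 was no longer called because its intact mean fell below 5 FPKM. Quantile normalization of all samples gave −0.89, −1.62, −1.74 and −0.73. Hoxd1 had a log2-fold change of −0.89 (SE 0.17, limma, adjusted p = 0.00272), and Hoxb6 one of −0.81 (SE 0.23, limma, adjusted p = 0.0209). Hoxb6 measured 4.98, 4.67, 5.60 and 4.41 FPKM in intact samples, all above the sorted samples. Its adjusted p in limma was 0.0867 after quantile normalization, 0.0607 without intact replicate 3 and 0.0570 without sorted replicate 1. Hoxb5 had a log2-fold change of 0.80 (SE 0.12, limma, adjusted p = 9.2e-04). Hoxd8 and Hoxd10 changed by 0.48 and 1.05, with adjusted p-values of 0.0276 and 0.0382 in limma, and their groups overlapped. Without intact replicate 1 Hoxd8 was called higher, at 0.61, but without intact replicate 2, 3 or 4 or sorted replicate 1, 2 or 3 its adjusted p was 0.0510 to 0.0797 in limma. That of Hoxd10 was 0.0596 to 0.0993 (limma) without intact replicate 1, 2 or 3 or sorted replicate 2, 3 or 4. Hoxd3 and Hoxd4, which differed from intact DRG in unsorted samples, had log2-fold changes of 0.14 and −0.27 here (SE 0.33 and 0.21, adjusted p = 0.763 and 0.337 from limma). Hoxb4, Hoxc9 and Hoxd9, which differed between sorted and unsorted DRG, changed by 0.48, 0.02 and −0.27 against intact DRG. Their adjusted p-values in limma were 0.0731, 0.952 and 0.150. After quantile normalization the changes were 0.97, 0.60 and 0.07 (limma, adjusted p = 0.00232, 0.102 and 0.721). In 2 of 39 genes every sorted sample was above every intact sample (against 8.27% of all genes), and in 8 genes below (against 16.2%). Of the 25 tested these were 2 and 6, against 15.6% and 21.9% of genes tested. The median log2-fold change was −0.24 over the Hox genes tested and −0.04 over all genes tested, and quantile normalization turned both, to 0.26 and 0.13. After it 9 of 26 Hox genes tested were higher and 5 lower at an adjusted p under 0.05 (limma), or 34.6% and 19.2%, against 25.2% and 16.6% of all genes tested. The same step moved the share of calls that were higher from 41.3% to 51.3%.

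Among posterior genes with low levels, 3 varied between samples of a group. Hoxd10 measured 0.722, 1.15, 0.637 and 1.95 FPKM in intact, 1.502, 1.63, 0.968 and 3.42 FPKM in unsorted and 1.66, 1.96, 2.62 and 2.84 FPKM in sorted samples. Hoxc11 measured 0.0828, 0, 0 and 0.660 FPKM in intact, 0.316, 0.148, 0.331 and 1.05 FPKM in unsorted and 0.905, 0, 0.0800 and 0.374 FPKM in sorted samples. Hoxd11 measured 0.264, 0.747, 0.190 and 0.952 FPKM in intact and 0.586, 0.343, 0.373 and 1.04 FPKM in unsorted samples, and 0.587 to 0.893 FPKM in sorted samples. In all 3 genes, which mark lumbar and sacral levels in the embryo, intact replicate 4 and unsorted replicate 4 were the highest of their groups. In intact DRG, replicate 1 was the highest sample for 19 of the 26 Hox genes that averaged 1 FPKM or more, but not for Hoxd10. The same count was not made over all genes, where this sample also stood apart, so it is not shown to be particular to Hox genes.

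Non-coding transcripts within the clusters were read from the same table. Mira, placed between Hoxa6 and Hoxa7 in the table, lies within the span that GENCODE gives to Hoxa7, so its reads may be those of Hoxa7. It measured 18.2, 14.3, 10.5 and 12.4 FPKM in intact, 19.4, 18.6, 14.8 and 15.8 FPKM in unsorted and 15.9, 20.9, 15.6 and 15.9 FPKM in sorted samples. Its log2-fold change between sorted and unsorted samples was −0.01 (SE 0.12, limma, adjusted p = 0.956). Gm53, a gene beyond Hoxb9 on the 5′ side, measured 1.23, 0.895, 1.42 and 1.06 FPKM in unsorted and 0.172, 0, 0.692 and 0.478 FPKM in sorted samples and was below the filter. It was lower in every sorted sample, like the 3 Hox genes beside it. The transcript 6720416L17Rik, between Hoxd3 and Hoxd1, had a log2-fold change of −0.55 (SE 0.19, limma, adjusted p = 0.0405), from 1.73 to 2.32 FPKM in unsorted samples to 1.13 to 1.87 FPKM in sorted samples. Hotair, in the Hoxc cluster, was at most 0.133 FPKM. The microRNA genes in the clusters, Mir10a, Mir10b, Mir196a-1, Mir196a-2, Mir196b and Mir615, were listed at 0 throughout. The libraries were made from poly(A) RNA, which does not hold mature microRNAs.

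Genes that act with or upstream of Hox proteins were followed in lists of their own. TALE homeodomain proteins bind DNA together with Hox proteins. Of 9 TALE genes tested in sorted against unsorted DRG, 2 were higher and 4 lower at an adjusted p under 0.05 (limma). The shares over all genes tested were 18.8% higher and 27.7% lower. Meis2 measured 5.91, 6.44, 6.11 and 5.86 FPKM in unsorted and 1.08, 0.352, 0.868 and 0.654 FPKM in sorted samples (log2-fold change −2.97, SE 0.27, limma, adjusted p = 2.1e-05). It was far lower in every sorted sample. Pbx3 was also called lower (log2-fold change −0.53) and Pknox2 higher (0.53), while the list as a whole summed to 69.3 to 73.2 FPKM in unsorted and 67.1 to 80.6 FPKM in sorted samples.

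Polycomb proteins keep Hox genes silent, and of 18 of their 19 genes tested 3 were higher and 1 lower at an adjusted p under 0.05, with 0 called in limma and 4 higher and 2 lower at an unadjusted p under 0.05. Of all genes tested 18.8% were higher and 27.7% lower at an adjusted p under 0.05 (limma). At the unadjusted limit no share over all genes was taken, for this list or the next. The list's most abundant genes were Cbx6 and Phc2, at means of 51.8 and 27.1 FPKM in unsorted and 46.7 and 29.6 FPKM in sorted DRG. Of 5 genes for MLL proteins, their partner menin and H3K27 demethylases, which keep Hox genes active, 1 was lower at an adjusted p under 0.05 and 0 were called in limma, with 1 lower at an unadjusted p under 0.05. The most abundant were Men1 and Kmt2a, at 18.0 and 5.81 FPKM in unsorted and 17.7 and 6.26 FPKM in sorted DRG. Retinoic acid induces Hox genes of the 3′ parts of the clusters. Of 15 genes for its synthesis, breakdown, binding and receptors 10 were tested, of which 7 were lower and 1 higher (limma, adjusted p under 0.05). The receptor gene Rxra fell from 5.84 to 6.41 FPKM in unsorted to 1.799 to 2.09 FPKM in sorted samples, and Rarg rose from 9.63 to 11.9 FPKM to 15.6 to 20.8 FPKM. Gdf11, a signal for posterior identity, measured 7.97 to 10.4 FPKM in unsorted and 2.82 to 6.30 FPKM in sorted samples and was called lower (log2-fold change −1.13, SE 0.23, limma, adjusted p = 0.00327). Cdx2 and Cdx4, activators of posterior Hox genes in the embryo, were listed at 0 in all samples, and Cdx1 was at most 0.160 FPKM.

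Homeobox genes of sensory neurons outside the clusters were also read. Of 8 tested, 6 were called higher in sorted than in unsorted DRG (Isl2, Pou4f1, Pou4f2, Tlx2, Tlx3 and Prrxl1) and Pou4f3 lower, against 8.15% and 12.5% of all genes tested. Isl2 measured 69.7, 65.9, 70.0 and 60.0 FPKM in unsorted and 153, 170, 130 and 145 FPKM in sorted samples, with a log2-fold change of 1.17 (SE 0.09, limma, adjusted p = 9.7e-06). The median log2-fold changes of the lists above were −0.22 for TALE, 0.12 for Polycomb, 0.10 for MLL and demethylase and −1.41 for retinoic acid genes, beside 0.73 for the sensory homeobox genes and −0.04 for all genes tested.

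RefSeq promoter sequences (GRCm38.p6) were matched to 22 of the 39 Hox genes, in 24 windows of 300 bases. A window spans a gene's annotated start and reaches into its first exon. Hox windows held a median of 14.5 CG dinucleotides, from 4 to 45, against 7 over 32851 windows of all genes. The TATA box motif TATAAA, on either strand, was in 16.7% of Hox windows and 13.6% of all windows. The motif TGATNNAT, the core of sites bound by Pbx and Hox proteins together, was in 16.7% and 8.85%, and AGGTCA, the core of sites bound by retinoic acid receptors, in 29.2% and 16.3%. Windows of 2 genes that fell in sorted DRG, Hoxd1 and Hoxb8, and of 2 that rose, Hoxb4 and Hoxd4, are shown 5′ to 3′ with CG dinucleotides in capitals, to set their base composition side by side. They lie at chr2:74762730-74763029 (Hoxd1), chr11:96281655-96281954 (Hoxb8), chr11:96318017-96318316 (Hoxb4) and chr2:74721728-74722027 (Hoxd4), all on the plus strand.
Hoxd1: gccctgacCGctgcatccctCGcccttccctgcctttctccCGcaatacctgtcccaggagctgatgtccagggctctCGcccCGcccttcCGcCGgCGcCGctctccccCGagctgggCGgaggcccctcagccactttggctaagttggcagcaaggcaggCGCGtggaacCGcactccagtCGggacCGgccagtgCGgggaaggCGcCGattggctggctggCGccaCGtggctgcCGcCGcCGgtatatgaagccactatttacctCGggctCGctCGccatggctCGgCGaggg
Hoxb8: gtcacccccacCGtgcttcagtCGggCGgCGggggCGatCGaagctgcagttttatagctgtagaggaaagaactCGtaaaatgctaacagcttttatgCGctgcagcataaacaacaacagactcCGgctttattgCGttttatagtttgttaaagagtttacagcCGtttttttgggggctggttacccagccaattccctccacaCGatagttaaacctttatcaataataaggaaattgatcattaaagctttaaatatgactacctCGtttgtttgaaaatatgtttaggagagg
Hoxb4: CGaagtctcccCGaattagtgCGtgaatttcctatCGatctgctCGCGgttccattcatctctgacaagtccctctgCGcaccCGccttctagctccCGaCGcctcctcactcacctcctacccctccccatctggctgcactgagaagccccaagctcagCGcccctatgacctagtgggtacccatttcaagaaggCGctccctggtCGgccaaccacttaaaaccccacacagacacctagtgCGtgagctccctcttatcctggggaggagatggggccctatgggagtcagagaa
Hoxd4: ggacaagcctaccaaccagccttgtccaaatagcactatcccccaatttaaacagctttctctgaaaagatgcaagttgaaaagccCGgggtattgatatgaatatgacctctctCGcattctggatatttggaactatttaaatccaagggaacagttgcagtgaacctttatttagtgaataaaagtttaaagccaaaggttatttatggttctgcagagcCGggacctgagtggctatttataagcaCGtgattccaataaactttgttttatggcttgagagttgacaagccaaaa
The windows of Hoxd1, Hoxb8, Hoxb4 and Hoxd4 held 29, 13, 14 and 4 CG dinucleotides. On either strand, TATAAA was in the windows of Hoxb8 and Hoxd4, TGATNNAT in that of Hoxb8 and AGGTCA in those of Hoxb4 and Hoxd4. All of these matches lie on the strand opposite to the one shown, where they read as the reverse complement of the motif. A match is a stretch of letters and not a site shown to be bound.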

How the data were processed

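The values are the FPKM the authors deposited. Upstream, reads were aligned to mm10 with TopHat2, merged with SAMtools and estimated with Cufflinks 2.1.1. The table holds 24490 genes in 12 samples, and 0 columns were without a sample. CuffDiff, used in the study, needs aligned reads, so groups were compared with limma 3.58.1 in R 4.3.3 on log2(FPKM + 0.1), 4 samples against 4, with a variance trend, two-sided, for genes that averaged 1 FPKM or more in the 8 samples. P-values were adjusted by the Benjamini-Hochberg method. A call needed an adjusted p under 0.05, a log2 ratio of means beyond 0.5 and more than 5 FPKM on average where the gene is higher. Hox genes that averaged 5 FPKM or more in any group, or called in any comparison, are given sample by sample, and the others named were chosen after their values were seen. Other pseudocounts, filters, scalings, criteria, fits and left-out replicates were tried. The steps were tested on simulated data. The members and lists were chosen with earlier results of these data known. Depth was estimated from the spacing of low values, for an assumed fragment length.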

Additional observations from a re-analysis of the deposited data

Results flagged for a closer look

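A sample far from the other 3 of its group was looked for in 70 combinations of gene and group, and 6 were found. By chance about 1 in 20 groups would hold such a sample, or 3.5 of 70. Of the 6 found, 4 concern intact replicate 1, the sample that also stood apart over all genes, and the others sorted replicate 2.

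In intact replicate 1, Hoxa5 measured 4.05 FPKM (others 3.52 to 3.53), Hoxa10 9.20 FPKM (others 6.31 to 6.69), Hoxb9 4.56 FPKM (others 3.17 to 3.33) and Hoxc9 3.57 FPKM (others 1.55 to 1.84). In sorted replicate 2, Hoxa5 measured 5.34 FPKM (others 3.69 to 3.90) and Hoxa7 8.24 FPKM (others 6.28 to 6.29). The cause was not tested for any of the 6.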

How the results depend on the processing

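None of the 25 log2-fold changes of Hox genes that passed the test reversed under any setting. Genes that did not pass were not followed in this way. Of these values 424 kept their direction and side of the threshold and 44 lost an adjusted p under 0.05. Hoxb7, Hoxb8, Hoxb9, Hoxc8 and Hoxd1 stayed lower in sorted than in unsorted DRG under every setting that tested them. Where counts moved and no reason is given, the cause was not tested.

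With a filter at a mean of 5 FPKM fewer genes are tested. In sorted against unsorted DRG 1 Hox gene was then higher and 1 lower at an adjusted p under 0.05 and 1 called lower, in unsorted against intact DRG 0 were lower, and in sorted against intact DRG 1 was lower and 1 called lower. With median-ratio size factors, and with red blood cell genes removed, 2 Hox genes were called higher in sorted against intact DRG. Quantile normalization gave 1 called higher, 11 higher by adjusted p and 1 called lower in sorted against unsorted DRG, and 2, 9 and 1 in sorted against intact DRG.

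Other criteria change the counts by their construction. By adjusted p alone, 5 Hox genes of 2261 genes were higher and 6 of 3331 lower in sorted against unsorted DRG, 3 of 1828 and 2 of 965 in unsorted against intact DRG, and 3 of 1728 and 6 of 2524 in sorted against intact DRG. With a log2 ratio beyond 1, 260 genes were called higher and 879 lower in the first comparison, 42 and 123 in the second (0 Hox genes higher) and 186 and 825 in the last (0 Hox genes higher, 1 lower). With a mean above 1 FPKM, 4 Hox genes were called higher and 6 lower (2352 genes lower) in the first, 2 lower (665 genes) in the second, and 2 higher and 6 lower (2206 genes) in the last. Above 1 FPKM in all samples were 23 Hox genes in intact, 20 in unsorted and 20 in sorted DRG, and above 10 FPKM 0, 2 and 2. With classes 1 to 4, 5 to 9 and 10 to 13, anterior, central and posterior sums were 26.95, 67.2 and 12.3 FPKM in intact, 25.6, 69.8 and 12.5 FPKM in unsorted and 23.4, 63.2 and 11.8 FPKM in sorted DRG.

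With single replicates left out, Hox genes called higher numbered 0 to 1 in sorted against unsorted, 0 to 1 in unsorted against intact and 1 to 2 in sorted against intact DRG, and those called lower 1 to 3 in the last. Hox genes higher by adjusted p numbered 1 to 5 in unsorted against intact and 1 to 3 in sorted against intact DRG. All genes called lower in unsorted against intact DRG numbered 187 to 334.

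The next 2 settings were chosen after seeing the data. With unsorted replicates 1 and 2 averaged, the pair that differed least, 0 Hox genes were called higher and 1 was higher by adjusted p in unsorted against intact DRG. Without sorted replicates 3 and 4, 3 Hox genes were higher by adjusted p against unsorted and 1 against intact DRG.

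With a replicate block, which treats equal replicate numbers as pairs, correlations between equal numbers were −0.14 to 0.07 and no pairing is described. Called higher and lower were 0 and 3 Hox genes (991 and 1516 genes) in sorted against unsorted, 1 and 0 (541 and 358) in unsorted against intact and 1 and 2 (915 and 1314) in sorted against intact DRG. By adjusted p 4 were higher and 6 lower, 4 and 2, and 3 and 6, and of the named genes Hoxc9 alone lost its place (limma, adjusted p = 0.0534).

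The groups differ in preparation and in mice per sample at once. FPKM hold no counts, so low values rest on estimated fragments, and axial levels were not separated.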
